A study of Mus musculus with 5 samples.

Results

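The EGF family ligands, their receptor Egfr and the receptor's feedback inhibitor Errfi1 were followed in whole colon after stimulation of the IL-11 receptor. The family was taken as 10 named genes, Ereg, Areg, Hbegf, Tgfa, Egf, Btc, Epgn, Nrg1, Egfr and Errfi1, out of 22911 gene symbols on the array, and all of their probes were used, 15 of 56605. The series holds 5 single-colour Agilent mouse arrays, each with the Cy3-labelled RNA of 1 mouse. All mice were wild type, of strain C57BL/B6. The NT-3N group (n = 3) had received an intravenous injection of NT-3N, an IL-11 receptor agonist that is a modified human IL-11, and the colon was removed 3 hr later. The Control group (n = 2) was untreated, and the labels name no vehicle injection, so effects of the injection and of the agonist cannot be told apart. The labels give the dose as 10 mg, whereas the description of the experiment gives the same figure in micrograms, so the dose is uncertain. The injected mice were young adults, and the labels give neither age nor sex.

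EGF family ligands are made as membrane-bound precursors that proteases of the ADAM family cut loose, and they act on nearby cells through the receptor tyrosine kinases Egfr, Erbb3 and Erbb4, with Erbb2 as a partner. Receptor activation feeds the ERK pathway, which in turn switches on genes that restrain it, such as Errfi1, the Dusp phosphatases and the Sprouty proteins. In the intestine these ligands are known as growth and repair signals for the epithelium, made both by epithelial and by stromal cells. IL-11 signals through its own receptor chain and gp130, chiefly to STAT3 but also to ERK, and Socs3 is a well known STAT3 target.

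Between 70.6% and 72.9% of the probes on each array were well above background, no spot was saturated, and the median processed signal ran from 92.3 to 115.8, highest on NT-3N replicate 2. The arrays correlated with each other at 0.980 to 0.992 across features, and the Control arrays correlated with each other at 0.984. All 8 epithelial markers of the list used were measured, Epcam and Cdh1 among them, so the RNA carried the colon epithelium, and markers of fibroblasts, smooth muscle, enteric neurons and macrophages were measured as well. Whole colon is a mixture, and in such bulk RNA fewer cells of a type and less RNA per cell cannot be told apart. Socs3 was taken as the check for a response in the injected mice, which cannot tell the agonist from the injection. It had a log2 signal of 10.63 and 10.11 on the Control arrays and of 12.88, 13.21 and 13.14 on the NT-3N arrays. Socs3 rose 6.52-fold (95% interval 4.85 to 8.78; limma adjusted p = 0.0087). That call was lost without NT-3N replicate 2 (adjusted p = 0.063) and without NT-3N replicate 3 (adjusted p = 0.12), although the fold change hardly moved.

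No member of the EGF family differed between the groups beyond the spread between mice. Of the 10 members, 9 were well above background on all 5 arrays and were tested. None passed an adjusted p of 0.05 with limma (0 of 9, against 0.143% of the 32917 features tested), and none passed an unadjusted p of 0.05 (0 of 9, against 9.62% of all features). The local-pooled-error test that the study's methods name also called 0 of 9 at either threshold. The arrays of the groups overlapped for all 9 members, whereas 28.4% of all features had no overlap. The estimates lay above 0 for 6 members and below 0 for 3, with a median log2 fold change of 0.07 against -0.02 over all features. The highest upper bound of the intervals was a 1.76-fold level (Areg), and the lowest lower bound was a 0.614-fold level (Tgfa). A change of the size seen for Socs3 thus lay outside the interval of every tested member, while smaller changes were not resolved by 5 arrays.

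**Figure D1:**
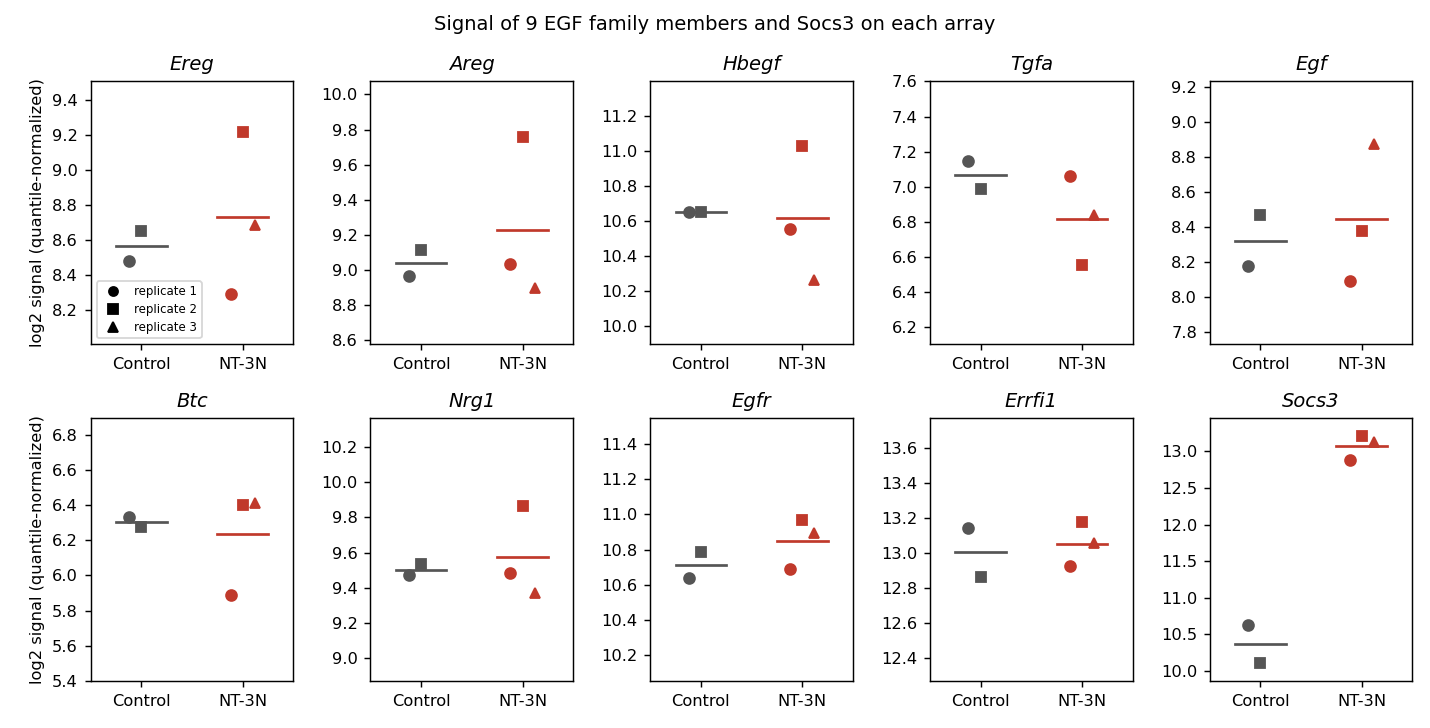
Log2 signal, quantile normalized, of the 9 tested members and of Socs3 on each array. Each point is 1 mouse, its shape gives the replicate number and lines are group means. The vertical scale spans the same range for all members but is wider for Socs3. The groups overlap in every member panel, and for 6 members NT-3N replicate 2 is the highest point, while the 3 NT-3N points for Socs3, at 12.88 to 13.21, lie above both Control points.

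The sequence just before the start site is shown for Socs3, which rose, and for the members in which a searched motif was found, so that the upstream letters can be read beside the values. RefSeq (GRCm38.p6) gave windows from 250 bases before to 50 bases after the start for 7 of the 10 members, 9 windows in all. Ereg, Hbegf and Nrg1 were not searched. Letters of the STAT element TTCNNNGAA stood in 0 of these 9 windows and in 8.30% of all 32851 windows of this length. Socs3 held 1, starting at position -154. Letters of the cAMP response element, TGACGTCA, stood in 1.79% of all windows, and in those of Areg, at -61, and Errfi1, at -51 from the later of its start sites in the table. The AP-1 letters TGAGTCA or TGACTCA (5.20% of all windows) and the CArG box, the serum response element core (1.63%), were in none of the 9. Both strands were searched, and positions count from the start site. A match is a run of letters and says nothing of a factor's binding, and no match says only that the letters are not in that window. The 250 bases before the start are given 5′ to 3′ on the gene's own strand, with the STAT letters of Socs3 (chr11:117969367-117969616, minus strand) and the cAMP response element letters of Areg (chr5:91139349-91139598, plus strand) and Errfi1 (chr4:150854820-150855069, plus strand) in capitals.
Socs3: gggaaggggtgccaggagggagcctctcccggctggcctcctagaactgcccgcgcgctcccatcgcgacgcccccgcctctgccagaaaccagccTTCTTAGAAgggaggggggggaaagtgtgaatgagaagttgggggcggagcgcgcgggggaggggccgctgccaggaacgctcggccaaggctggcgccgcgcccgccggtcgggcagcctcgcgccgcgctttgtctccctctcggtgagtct
Areg: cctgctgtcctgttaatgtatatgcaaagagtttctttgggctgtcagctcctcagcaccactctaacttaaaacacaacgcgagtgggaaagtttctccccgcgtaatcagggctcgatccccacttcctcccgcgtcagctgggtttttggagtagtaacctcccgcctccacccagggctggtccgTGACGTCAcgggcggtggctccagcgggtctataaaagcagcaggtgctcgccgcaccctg
Errfi1: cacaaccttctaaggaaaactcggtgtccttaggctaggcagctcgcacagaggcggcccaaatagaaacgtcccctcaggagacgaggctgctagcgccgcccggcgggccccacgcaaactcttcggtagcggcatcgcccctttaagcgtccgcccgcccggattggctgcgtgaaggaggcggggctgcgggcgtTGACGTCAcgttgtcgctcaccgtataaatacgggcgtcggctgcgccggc

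Ereg, Areg, Epgn and Btc lie side by side on chromosome 5 in the order Epgn, Ereg, Areg, Btc, with no other protein-coding gene between them in RefSeq. Ereg encodes epiregulin, a ligand of Egfr and Erbb4. Its log2 signal was 8.48 and 8.65 on the Control arrays and 8.30, 9.22 and 8.69 on the NT-3N arrays. The NT-3N arrays thus held both the lowest and the highest value, and the log2 fold change was 0.17 ± 0.26 (SE; 95% interval -0.47 to 0.80; limma adjusted p = 0.86). Areg encodes amphiregulin, an Egfr ligand. Areg had 8.96 and 9.11 on the Control arrays and 9.03, 9.76 and 8.90 on the NT-3N arrays. Again 1 array, NT-3N replicate 2, stood high while the other NT-3N arrays lay near the Control values, and the log2 fold change was 0.19 ± 0.26 (SE; limma adjusted p = 0.84). Without NT-3N replicate 2 the log2 fold changes turned to -0.07 for Ereg and -0.08 for Areg. Btc, the gene of betacellulin, which binds Egfr and Erbb4, had a log2 signal of 6.33 and 6.28 in Control and of 5.89, 6.40 and 6.41 in NT-3N (log2 fold change -0.07 ± 0.21, SE; limma adjusted p = 0.93). A second Btc probe was not well above background on any array. Epgn encodes epigen, a low-affinity Egfr ligand. Its single probe exceeded background clearly on Control replicate 1 and on no other array, so that it was not tested. The measured log2 signals of Epgn were 4.21 and 2.93 in Control and 2.98, 1.73 and 3.69 in NT-3N, with overlap between the groups. The neighbours on chromosome 5 therefore gave no common direction: Ereg and Areg lay slightly above 0, Btc slightly below.

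Hbegf encodes heparin-binding EGF-like growth factor, a ligand of Egfr and Erbb4. The Control arrays were at 10.65 and 10.65 and the NT-3N arrays at 10.55, 11.03 and 10.27. The NT-3N values lay on both sides of the Control values, and the log2 fold change was -0.04 ± 0.21 (SE; limma adjusted p = 0.97). It was -0.24 without NT-3N replicate 2 and 0.14 without NT-3N replicate 3. Tgfa encodes transforming growth factor alpha, an Egfr ligand known from the intestinal epithelium. Tgfa had a log2 signal of 7.15 and 6.99 in Control and of 7.06, 6.56 and 6.84 in NT-3N. NT-3N replicate 1 lay between the Control values and the other NT-3N arrays lay below them. With a log2 fold change of -0.25 ± 0.19 (SE; 95% interval -0.70 to 0.20; unadjusted p = 0.23 and adjusted p = 0.71 in limma), Tgfa had the smallest p of all members. Its sign was the same in all 18 alternatives tried, but those that changed only the filter or the variance model left the estimate as it was. Egf itself, the founding ligand of the family, had 8.18 and 8.47 in Control and 8.09, 8.38 and 8.87 in NT-3N. NT-3N replicate 3 was the highest array and NT-3N replicate 1 the lowest, and the log2 fold change was 0.13 ± 0.24 (SE; limma adjusted p = 0.89).

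Nrg1 encodes neuregulin 1, which binds Erbb3 and Erbb4 rather than Egfr. It had 3 probes. The brightest, A_55_P1985433, read 9.47 and 9.53 in Control and 9.48, 9.86 and 9.37 in NT-3N (log2 fold change 0.07 ± 0.16, SE; limma adjusted p = 0.91). The next, A_52_P369769, read 6.03 and 5.85 in Control and 5.79, 5.96 and 5.72 in NT-3N, with a log2 fold change of -0.11. The dimmest, A_52_P158772, read 4.88 and 4.81 in Control and 5.04, 5.48 and 5.14 in NT-3N. This was the 1 member probe of 13 tested whose groups did not overlap, higher in NT-3N. It did not pass the test (log2 fold change 0.38 ± 0.23, SE; unadjusted p = 0.15 and adjusted p = 0.65 in limma), and 13.5% of all features were higher without overlap and 14.8% lower. The probes of Nrg1 thus disagreed in sign.

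Egfr, the receptor, was measured by 3 probes. The brightest, A_52_P106259, had 10.64 and 10.79 in Control and 10.69, 10.97 and 10.89 in NT-3N. Of the NT-3N arrays, 2 lay above both Control arrays and 1 between them, and the log2 fold change was 0.14 ± 0.12 (SE; 95% interval -0.14 to 0.42; unadjusted p = 0.28 and adjusted p = 0.74 in limma). Probe A_52_P56471 read 8.43 and 8.66 in Control and 8.16, 8.70 and 8.75 in NT-3N, and probe A_52_P674338 read 8.48 and 8.53 in Control and 8.23, 8.50 and 8.75 in NT-3N. Both gave a log2 fold change of -0.01, so the small positive value of the brightest probe was not shared. Errfi1 encodes the adaptor that binds the Egfr kinase and shuts it off, and is itself switched on by receptor signalling. Errfi1 had 13.14 and 12.86 in Control and 12.93, 13.18 and 13.06 in NT-3N. The Control arrays lay farther apart than any NT-3N arrays, and the log2 fold change was 0.05 ± 0.12 (SE; 95% interval -0.23 to 0.34; limma adjusted p = 0.91). In linear terms the Errfi1 interval ran from 0.850-fold to 1.26-fold and that of Egfr from 0.905-fold to 1.34-fold, the narrowest intervals of the 9 members. Over all 13 probes tested, 7 lay above 0 and 6 below, and 0 had an unadjusted p under 0.05.

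**Figure D2:**
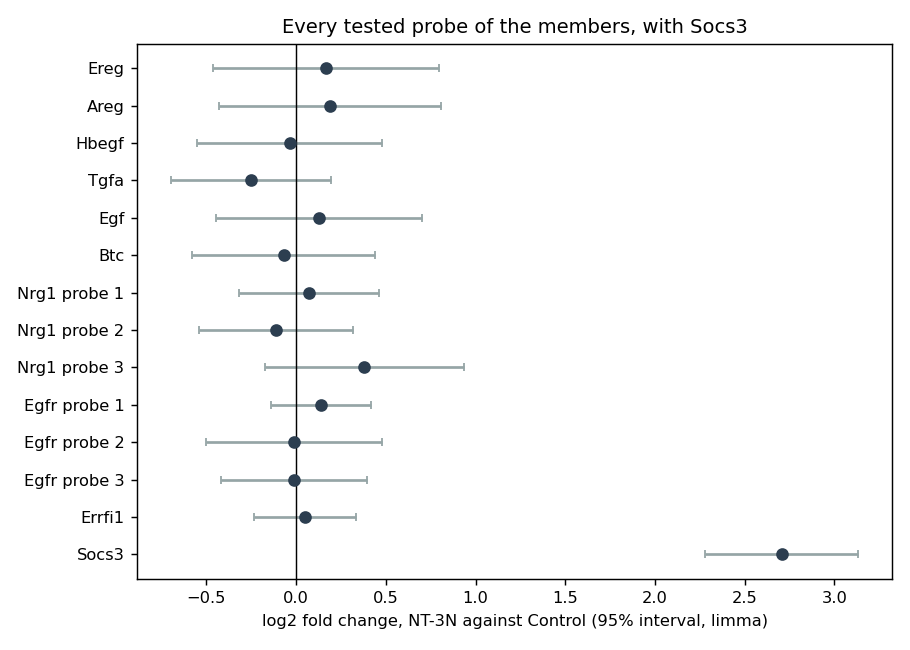
Log2 fold change, NT-3N against Control, of the 13 tested probes of the members and of the Socs3 probe, each tested as its own feature. Points are limma estimates from 2 Control and 3 NT-3N arrays and bars are 95% intervals. Every member interval spans 0, from the Tgfa estimate of -0.25 to the dimmest Nrg1 probe at 0.38, and the Socs3 estimate of 2.71 lies to the right of them all.

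The spread between mice was wider in NT-3N for most of the family. The SD of log2 signal was larger in NT-3N than in Control for 8 of 9 members, against 28 of 37 (75.7%) in the rest of the receptor pathway, described further on, and 64.6% of 32910 features with a value on every array. For Ereg it was 0.46 in NT-3N and 0.12 in Control, for Areg 0.46 and 0.11, and for Hbegf 0.39 and 0.00041. The Errfi1 SD was the exception, 0.12 in NT-3N and 0.20 in Control. With 2 Control arrays each Control SD rests on a single difference.

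For some members 1 array stood out, and an effect of the mouse and one of the array cannot be told apart. NT-3N replicate 2 had the highest signal of all 5 arrays for 6 of 9 members, Ereg, Areg, Hbegf, Nrg1, Egfr and Errfi1. The same array was highest for 16 of 37 genes (43.2%) of the rest of the receptor pathway and for 15.7% of all features. The count was 6 of 9 also after scaling to the 75th percentile or the median of each array. On the log2 scale this array lay above the mean of the other NT-3N arrays by 0.73 for Ereg, 0.79 for Areg, 0.62 for Hbegf and 0.44 for Nrg1, and by 0.17 for Egfr and 0.19 for Errfi1. Tgfa went the other way, at -0.39, and was lowest on this array. The other NT-3N arrays together lay within 0.081 of the Control mean for Ereg, Areg, Nrg1, Egfr and Errfi1. Relative to that mean they lay at -0.24 for Hbegf, -0.16 for Btc, -0.12 for Tgfa and 0.16 for Egf. Without NT-3N replicate 2, 2 members lay above 0 and 7 below, with a median log2 fold change of -0.07, and none passed an unadjusted p of 0.05.

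**Figure D3:**
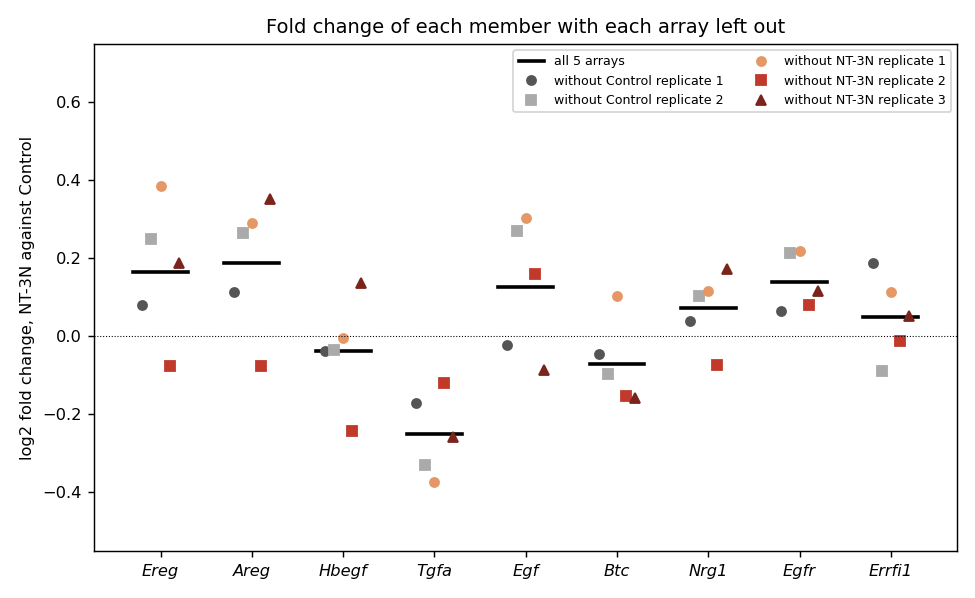
Log2 fold change, NT-3N against Control, of each tested member with all 5 arrays (black lines) and with each array left out in turn (points, 1 for each array). Leaving out NT-3N replicate 2 puts Ereg at -0.07 and Areg at -0.08, below the dotted line at 0, while Tgfa stays below 0 and Egfr above 0 in every case.

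Fibroblast, macrophage and endothelial markers were also mostly highest on that array, whereas smooth muscle markers were not. The summed linear signal of the 6 fibroblast markers was 68051.5 and 61363.9 in Control and 54678.2, 82820.7 and 70931.2 in NT-3N, and NT-3N replicate 2 was the highest array for 5 of the 6. Of these markers 4 lay above 0 and 2 below, 0 passed an adjusted p of 0.05 and 1, Dcn, had an unadjusted p under 0.05. The 6 macrophage markers summed to between 9369 and 10015 in Control and to between 8213 and 11537 in NT-3N, again with NT-3N replicate 2 highest for 5 of 6. Between the groups 3 of the 6 lay above 0 and 3 below, with a median log2 fold change of -0.0036. Only Mrc1 had an unadjusted p under 0.05, higher on all NT-3N arrays (log2 fold change 0.53; unadjusted p = 0.0076 and adjusted p = 0.32 in limma). With quantile normalization NT-3N replicate 2 was highest for 3 of 4 endothelial markers too, for 2 of 3 erythroid and for 3 of 8 epithelial markers. It was highest for 0 of 6 smooth muscle markers and 0 of 6 enteric neuron and glia markers. Nor was it highest for any B cell, T cell, neutrophil, mesothelium or fat marker. The 8 epithelial markers summed to between 763279 and 781796 over all arrays, 2 above 0 and 6 below, and the 6 smooth muscle markers to 445674 and 460166 in Control and to between 326964 and 416455 in NT-3N, all 6 below 0 and 0 with an adjusted p under 0.05, but Myh11 and Tagln lower at an unadjusted p under 0.05. Of the 4 neutrophil markers, Cxcr2 and Retnlg were not tested. S100a8 and S100a9 summed to 8.88 and 8.70 in Control, where neither was well above background, and to between 94.6 and 456 in NT-3N. Both passed the filter only through the NT-3N arrays. Their limma values (adjusted p = 0.22 for S100a8 and 0.062 for S100a9) are therefore no support for a difference. The 4 B cell markers summed to 899 on Control replicate 2 and to between 3572 and 4154 on the other arrays. The B cell marker Ms4a1 differed by group, with a log2 signal of 4.95 and 6.53 in Control and of 9.54, 9.13 and 9.51 in NT-3N (log2 fold change 3.65; unadjusted p = 0.00011 and adjusted p = 0.059 in limma). The part of these cell types in the values of Ereg, Areg, Hbegf and Nrg1 was not tested.

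The rest of the receptor pathway had no adjusted call either, and Egr1 had the one large estimate. The list held 39 genes and 37 were tested, since Erbb4 and Nrg3 were not well above background. None passed an adjusted p of 0.05 with limma, and 4 had an unadjusted p under 0.05, 3 higher and 1 lower, which is 10.8% of 37 against 9.62% of all features (4.95% higher and 4.67% lower). The groups did not overlap for 9 of 37, 5 higher and 4 lower, which is 24.3% against 28.4%. Estimates were above 0 for 21 and below 0 for 16, with a median log2 fold change of 0.04. These shares lay near those of all features.

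Among the co-receptors, Erbb2 had a log2 fold change of -0.01 and Erbb3 of 0.14, neither with an unadjusted p under 0.05. Among the other neuregulins, Nrg2 read 6.61 and 6.63 in Control and 5.75, 6.20 and 5.88 in NT-3N. All 3 NT-3N values of Nrg2 lay below both Control values, with a log2 fold change of -0.68 ± 0.19 (SE; unadjusted p = 0.011 and adjusted p = 0.36 in limma). A second, dimmer Nrg2 probe, well above background on 1 array of each group, gave 0.23. Of the 5 genes of ligand shedding and trafficking, which include the proteases Adam10 and Adam17 that cut the precursors, 0 had an unadjusted p under 0.05, and their log2 fold changes ran from -0.19 to 0.05.

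Of the 10 genes that restrain or turn over the receptor, 2 had an unadjusted p under 0.05 in limma (20% against 9.62% of all features). The groups did not overlap for 3 of the 10, 2 higher and 1 lower (30% against 28.4%). Lrig1, a membrane protein that promotes degradation of Egfr and marks intestinal stem cells, read 12.62 and 12.79 in Control and 12.87, 13.11 and 12.95 in NT-3N. All 3 NT-3N values of Lrig1 were above both Control values, by a log2 fold change of 0.27 ± 0.10 (SE; unadjusted p = 0.039 and adjusted p = 0.49 in limma), and its second probe gave 0.33. Ptpn1, a phosphatase that acts on receptor tyrosine kinases and on JAK kinases, read 12.55 and 12.53 in Control and 12.76, 12.84 and 12.72 in NT-3N. It too did not overlap, with a log2 fold change of 0.23 ± 0.08 (SE; unadjusted p = 0.023 and adjusted p = 0.43 in limma), and its second probe gave 0.24. Among the 4 adaptors, Grb2, Shc1, Gab1 and Sos1, 0 had an unadjusted p under 0.05.

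Of the 14 genes of ERK output and feedback, 11 lay above 0 and 3 below, with a median log2 fold change of 0.10. Over all features 15263 of 32917 lay above 0. Egr1, an immediate early transcription factor that ERK and other signals switch on, read 8.66 and 9.32 in Control and 10.49, 11.50 and 10.59 in NT-3N. All 3 NT-3N values of Egr1 exceeded both Control values, by 3.66-fold (95% interval 2.06 to 6.51; unadjusted p = 0.0013 and adjusted p = 0.17 in limma). The local-pooled-error test called Egr1 (adjusted p = 6.19e-05, log2 fold change 1.60). On simulated data that test gave a larger share of false calls than limma. The simulated spreads were drawn from limma's own fit, so the simulation cannot rank the tests. Spred1, an inhibitor of the Ras to ERK step, read 10.00 and 10.07 in Control and 10.16, 10.30 and 10.30 in NT-3N, without overlap (log2 fold change 0.22; unadjusted p = 0.069 and adjusted p = 0.56 in limma). Dusp6, the ERK phosphatase and a close readout of ERK activity, read 12.30 and 12.50 in Control and 11.82, 12.38 and 12.04 in NT-3N, with overlap (log2 fold change -0.32; unadjusted p = 0.11 and adjusted p = 0.62 in limma). Egr1 and Dusp6, both downstream of ERK, thus had estimates of opposite sign, and only that of Egr1 had an unadjusted p under 0.05.

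**Figure D4:**
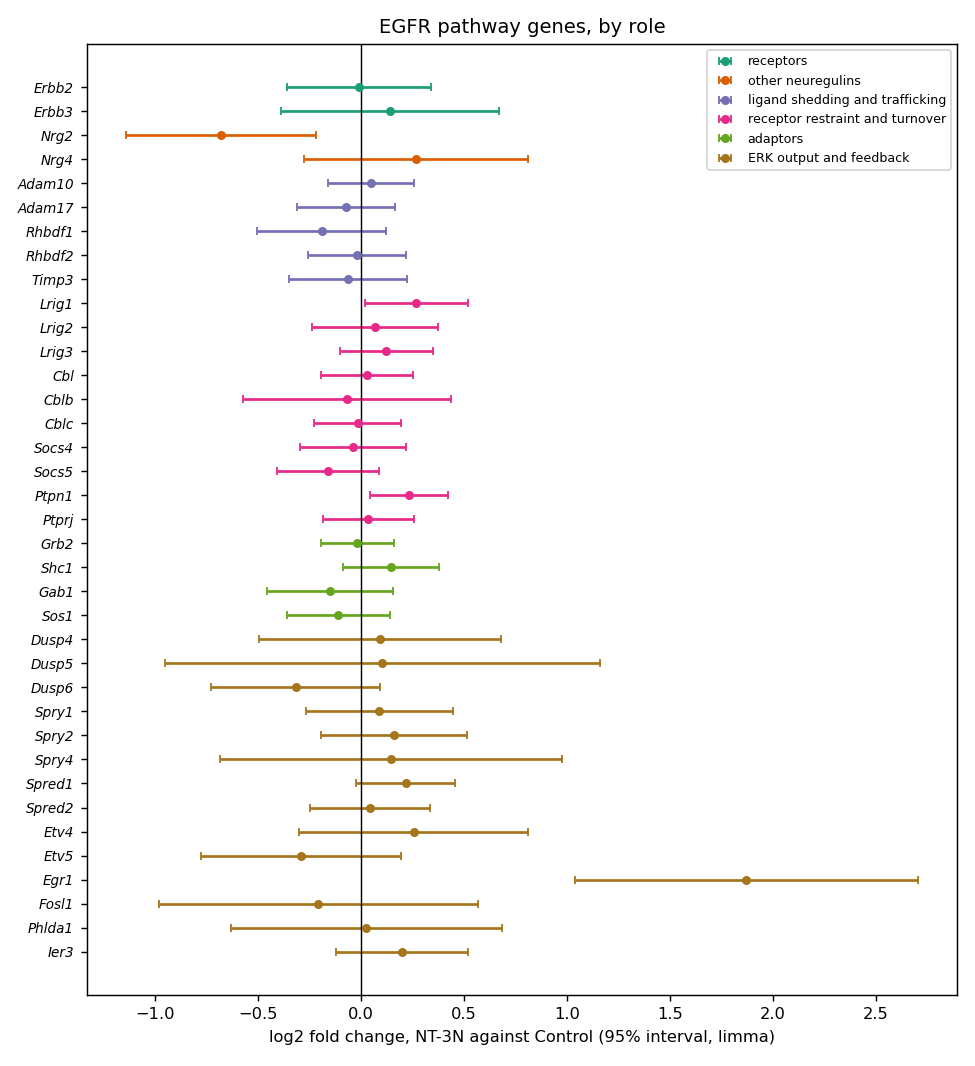
Log2 fold change, NT-3N against Control, of the 37 tested genes of the receptor pathway, coloured by role. Points are limma estimates from 2 Control and 3 NT-3N arrays and bars are 95% intervals. Egr1, at 1.87, stands to the right of all others, and the intervals of Nrg2, Lrig1 and Ptpn1 are the other ones that do not span 0.

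For the members with the smallest p, Tgfa and Egfr, the genes with the most similar pattern over the 5 arrays were sought among 16734 genes well above background on every array, by the root mean square difference of log2 values centred on each gene's own mean. For Tgfa they were 1600029I14Rik (0.034), Muc5b (0.038) and Zfp956 (0.039). Muc5b, a gel-forming mucin, read 6.34 and 6.21 in Control and 6.24, 5.70 and 6.10 in NT-3N, lowest on NT-3N replicate 2 like Tgfa. For Egfr they were Cmas (0.011), Slc33a1 (0.021) and Snrpa1 (0.025). With 5 arrays and this many genes, close matches are a description of these arrays only.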

How the data were processed

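Whole-colon RNA of 2 Control and 3 NT-3N mice was hybridised to Agilent single-colour arrays. The authors extracted spots with Feature Extraction 11.0.1.1, per the submitters' processing notes. The deposited scanner files give a background-subtracted processed intensity per spot, not scaled between arrays. The authors also deposited log2 values of 37380 probes, which served as an alternative only. They correlated with the unscaled log2 processed signal at 0.9999 or more on each array, which does not show how they were scaled. These arrays hold no read counts, so their number limits the precision.

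Control spots and outlier spots (69 to 184 of 59305 per array) were left out. The processed signal was log2-transformed, averaged per probe and quantile normalized. Probes well above background on at least 2 of 5 arrays, with values on both Control arrays and at least 2 NT-3N arrays, were kept. Unversioned accessions gave 32994 of 56605 probes a symbol in RefSeq (GRCm38.p6). The brightest probe stood for a gene. Coordinates are given only for the printed upstream sequences (GRCm38.p6), and not for genes or probes, since the array design refers to another build. This left 32917 features, 17942 with a symbol.

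NT-3N was set against Control in R 4.3.3 with limma 3.58.1 (lmFit, eBayes with intensity trend, two-sided, Benjamini-Hochberg over all features). Both limma and the local-pooled-error test were tried on simulated data, where calls of the latter were more often false. The simulated spreads came from limma's own fit, so this does not rank the tests. The local-pooled-error test of the study's methods was run as an alternative. Further alternatives changed scaling, background correction, filter, variance model, array weights, probe rule, replicate block and arrays. Named were all members, Socs3, the 6 pathway genes with the smallest p and the 3 genes most like each of the 2 members with the smallest p. The co-receptors Erbb2 and Erbb3 and single marker genes were named after their values were seen. The members and lists were chosen with earlier results of these data known. Marker lists of 12 cell types were measured, 0 of them with an adjusted p under 0.05 for any gene.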

Additional observations from a re-analysis of the deposited data

How the results depend on the processing

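The 9 tested members were recomputed under 18 alternatives, and 0 of the 162 values had an unadjusted p under 0.05 (lowest 0.060, Tgfa; lowest adjusted p 0.34). The members called stayed at 0 at either threshold. Tgfa stayed below 0 and Egfr above 0 throughout, and the other 7 turned sign at least once. Alternatives that changed only the filter or the variance model left the members' estimates as they were, so they could not turn a sign. The local-pooled-error test, which compares medians, gave -0.0083 for Areg, 0.099 for Btc and -0.017 for Nrg1 on the log2 scale. Median scaling gave 0.0053 for Hbegf, and array weights gave 0.11 for Hbegf and 0.047 for Btc. With 1 array left out, log2 fold changes ran from -0.075 to 0.39 for Ereg, -0.076 to 0.35 for Areg, -0.24 to 0.14 for Hbegf, -0.37 to -0.12 for Tgfa, -0.086 to 0.30 for Egf, -0.16 to 0.10 for Btc, -0.073 to 0.17 for Nrg1, 0.06 to 0.22 for Egfr and -0.087 to 0.19 for Errfi1. Signs turned without NT-3N replicate 2 for Ereg, Areg, Nrg1 (-0.073) and Errfi1 (-0.011), without NT-3N replicate 3 for Hbegf (0.14) and Egf (-0.086), without Control replicate 1 for Egf (-0.022), without NT-3N replicate 1 for Btc (0.10) and without Control replicate 2 for Errfi1 (-0.087). Where 1 Control array remained, its spread was taken to equal that of the NT-3N group.

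The labels do not say whether the replicate numbers pair the mice. Deviations of same-numbered arrays correlated at 0.13 and 0.036. With 2 Control arrays the Control deviations mirror each other, so these values cannot decide it. With the replicate block, fitted on replicates 1 and 2, Hbegf was at 0.14 and Egf at -0.087, and 0 features passed an adjusted p of 0.05 (2488 an unadjusted p).

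Of the pathway list, the local-pooled-error test called 1 gene, Egr1. At an unadjusted p under 0.05 the list held 2 genes with normexp background correction, 2 without the intensity trend, 2 with the local-pooled-error test and 2 (without Control replicate 2) to 5 with 1 array left out, against 4. Over all features, 47 calls at an adjusted p under 0.05 became 2 without the filter on dim probes, 2 without the intensity trend, 200 with array weights, 397 with the local-pooled-error test, and 31 or 116 without Control replicate 1 or 2 and 84, 1 or 0 without NT-3N replicate 1, 2 or 3. The 3167 features at an unadjusted p under 0.05 became 5233 with array weights, 1382 with the local-pooled-error test and 1959 (without Control replicate 2) to 5142 (without NT-3N replicate 1) with 1 array left out. Socs3 also lost its call without the filter (adjusted p = 0.091), without the trend (0.073) and with the replicate block (0.46). The causes were not tested. Signal over background limits Epgn, the second Btc probe, Erbb4 and Nrg3, for which no change could be measured.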
